A study of Saccharomyces cerevisiae with 12 samples.

Results

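The comparison described here is between budding yeast (Saccharomyces cerevisiae) labelled as deleted for hsp33 and the wild type, as 3 microarrays against 3, which are 6 of the 12 arrays of the study. Membership follows the sample labels alone, and the other arrays are 3 of the hsp31 deletion and 3 of the hsp32 deletion. All cultures grew in synthetic complete medium and were harvested when they reached the diauxic shift, with no drug or other treatment and no sample from another time. The title of the third hsp33 array leaves out the word for knockout that the other two carry, and its source field names the deletion. Strain background, mating type, deletion cassette, number of clones and culture density or glucose at harvest are not given in the sources used here. Nor do the labels say whether replicates are separate cultures, so the p-values speak only of the variation among the arrays at hand, part or all of which could be technical.

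Hsp33 of yeast is a small protein of the DJ-1 superfamily, named for the human protein linked to familial Parkinson disease, and is nearly identical to Hsp32 and Sno4 and more distantly related to Hsp31. Members of the family have been described as methylglyoxalases and as stress-related chaperones, and deletions in yeast have been linked to poor adaptation to the diauxic shift. At that shift yeast has used up the glucose it ferments and turns to respiring the ethanol it made. Genes of ribosomes and of biosynthesis are then repressed, and genes of respiration, gluconeogenesis, fatty acid oxidation, reserve carbohydrates, autophagy and general stress protection are induced. Target of rapamycin (TORC1) and protein kinase A hold that programme back in glucose, and the kinases Snf1 and Rim15 with the factors Msn2 and Msn4 carry it out.

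RNA was labelled with Cy3 and read on single-colour arrays. Levels below are log2 intensities after background correction and quantile normalization, differences are hsp33 deletion minus wild type on the log2 scale with the standard error (SE) of the limma fit, and a gene rose or fell where its Benjamini-Hochberg adjusted p was below 0.05. The 6 arrays had median foreground intensities of 607 to 1088 against local backgrounds of 64 to 88, and 91.4% to 94.6% of their probes stood above background. Levels correlated at 0.995 to 0.997 across genes between wild-type arrays, at 0.991 to 0.996 between hsp33 arrays and at 0.902 to 0.929 between the groups. One hsp32 array, replicate 2, had only 80.3% of probes above background. Its median foreground was 1065.5, and its negative control spots set a cutoff of 284.4, against 35.4 to 53.6 on the other arrays. The counts against that deletion given at the end are also given without this array. For the differences from the hsp32 deletion printed below for HSP33, YOR392W, AFB1, HIS3, YIL082W, GYP8, RPA135, POT1 and the a-cell genes, leaving it out changed no call.

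The targeted gene was examined first. HSP33 stood at 11.16, 10.95 and 11.22 on the wild-type arrays and at 9.41, 9.33 and 9.38 on the arrays labelled hsp33 deletion, a difference of -1.74 ± 0.10 (adjusted p = 7.78e-09). The groups did not overlap, but HSP33 remained above background on all 3 arrays of the deletion. In the other deletions it stood at 9.89 ± 0.15 (SD, n = 3, hsp31) and 8.90 ± 0.11 (SD, n = 3, hsp32), so the hsp33 arrays were lower than the former by 0.51 (adjusted p = 0.0116) and higher than the latter by 0.47 (adjusted p = 0.00582). SNO4 (-1.64 ± 0.10) and HSP32 (-1.48 ± 0.12) fell alongside, and HSP31 rose by 0.48 ± 0.10, from 12.65 ± 0.14 to 13.13 ± 0.12 (SD, n = 3 each), a call that was lost with median scaling (0.10, adjusted p = 0.443) and with plain background subtraction (adjusted p = 0.26). Probes for HSP32, HSP33 and SNO4 can share signal because the genes are near-identical, so this probe does not by itself check the deletion, and every direction below rests on the labels. HSP31, by comparison, stood at 6.65 ± 0.15 (SD, n = 3) on the arrays labelled hsp31 deletion and was not above background on any of them.

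A probe for YOR392W, whose systematic number follows that of HSP33 (YOR391C), set the hsp33 arrays apart. It is named here after its values were seen and the RefSeq table used for names does not list it. Its levels were 8.36, 8.36 and 8.49 in wild type and 10.17, 10.16 and 10.20 in the hsp33 deletion, a rise of 1.78 ± 0.12 (adjusted p = 3.62e-08). The hsp33 arrays did not overlap with wild type and were also higher than the hsp31 deletion by 2.34 (adjusted p = 1.66e-08) and than the hsp32 deletion by 1.53 (adjusted p = 2.04e-06). The annotated neighbours of HSP33 did not share this: FEX1, a fluoride exporter, fell by 0.53 ± 0.12 (-0.16 and not past the threshold with 75th percentile scaling) and ERR1, an enolase-related gene with near-identical copies, fell by 1.22 ± 0.31.

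On the arrays labelled hsp33 deletion the genes of alpha cells were high and those of a cells low, the reverse of wild type and of both other deletions. Haploid yeast is either an a cell, which makes a-factor and the receptor for alpha-factor, or an alpha cell, which makes alpha-factor and the receptor for a-factor, and the allele at the MAT locus sets which. HMRA1, the a1 gene, whose probe also reads the identical copy at MAT in a cells, stood at 12.99, 12.72 and 12.51 in wild type and at 6.59, 7.13 and 6.85 on the hsp33 arrays. It was not above background on any of the latter, so the fall was at least 45.1-fold (adjusted p = 2.58e-12), while the hsp31 and hsp32 deletions had means of 12.49 and 12.12. MF(ALPHA)1, the main alpha-factor gene, gave the reverse picture with 7.21, 7.17 and 7.36 in wild type, all below background, and 12.38, 12.44 and 12.26 on the hsp33 arrays. That rise was at least 31.9-fold (adjusted p = 2.58e-12), and the other deletions lay at 8.08 ± 0.29 and 8.42 ± 0.04 (SD, n = 3 each). All 4 alpha-cell genes rose, where 29.0% of all genes tested did: besides MF(ALPHA)1 these were STE3, the a-factor receptor (2.41 ± 0.11), MF(ALPHA)2, the second alpha-factor gene (7.27, 7.39 and 7.21 in wild type, above background on only 1 array, against 9.67, 9.76 and 9.47), and SAG1, the alpha-agglutinin (1.59 ± 0.09). MF(ALPHA)2 was bright enough to test only through the hsp33 arrays. The filter thus favoured its rise, which is not to be set against the 29.0%. The alpha1 probes rose as well, MATALPHA1 by 2.01 ± 0.18 and HMLALPHA1 by 2.10 ± 0.13, as did YCR041W, the open reading frame that overlaps MATALPHA1, from 9.56 ± 0.11 to 11.56 ± 0.10 (SD, n = 3 each). These cassette probes were listed after their values were seen, and the a2 and alpha2 probes (HMRA2, HMLALPHA2, MATALPHA2), which share sequence, rose by only 0.73 to 0.84, and HMLALPHA2 lost its call with median scaling (0.37) and within slide 2 (0.46).

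All 6 a-cell genes fell, where 32.4% of all genes tested did. MFA2, which encodes a-factor, stood at 10.11, 10.02 and 9.79 in wild type and at 7.61, 7.37 and 7.60 on the hsp33 arrays (-2.45 ± 0.16), and its companion MFA1 fell by 2.02 ± 0.10. BAR1, the protease that degrades alpha-factor, fell by 1.76 ± 0.12, and STE2, the alpha-factor receptor, went from 10.10, 10.07 and 10.20 to 8.86, 8.67 and 8.81 (-1.34 ± 0.09). AGA2, the adhesion subunit of a-agglutinin, fell by 0.98 ± 0.14 and STE6, the a-factor exporter, by 0.92 ± 0.12. No array of one group reached the other for any of these a-cell and alpha-cell genes, as for 72.0% of all genes tested. The a-cell genes stayed above background on all hsp33 arrays, and in the hsp31 and hsp32 deletions each of the 6 was higher than in wild type, MFA2 for example at 11.36 ± 0.18 and 11.47 ± 0.38 (SD, n = 3 each). Summed over the 6 a-cell probes, normalized intensity was 2710 to 2840 on the hsp33 arrays, 7320 to 7900 in wild type, and 16800 to 19800 over the other 6 arrays. Summed over the 4 alpha-cell probes it was 9660 to 10600 on the hsp33 arrays and 1340 to 1520 on the other 9. In bulk RNA fewer cells of a type and less RNA per cell cannot be told apart. Between the hsp33 deletion and wild type, mating type and the deletion cannot be told apart either, because each group holds 1 pattern. This applies to every difference from wild type reported below. The other deletions, with the a-cell pattern, also shifted from wild type in lists reported below. Array medians of small-subunit ribosomal genes minus wild type were 1.1 to 1.3 (hsp31), 1.7 to 1.8 (hsp32) and 1.4 to 1.7 (hsp33). For Msn2/Msn4 stress genes they were -0.73 to -0.90, -1.25 to -1.58 and -0.98 to -1.01. Whether mating type adds to these differences was not tested.

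**Figure D1:**
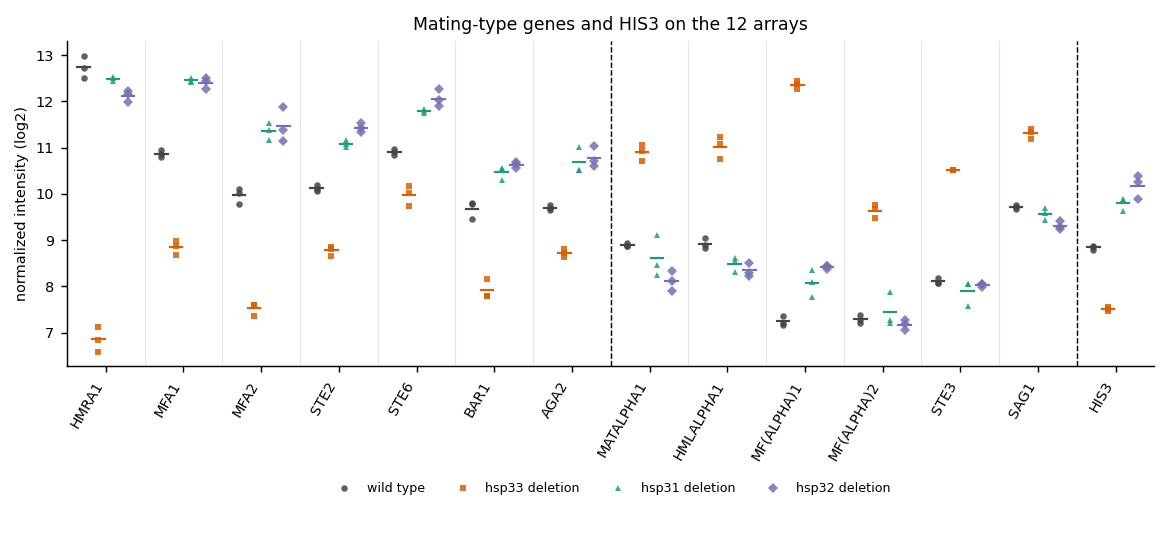
Normalized intensity (log2) of 13 mating-type probes and HIS3 on each of the 12 arrays; points are arrays, short lines are group means, and dashed lines separate a-type probes, alpha-type probes and HIS3. The hsp33 deletion arrays are the lowest for every a-type probe, from HMRA1 at 6.86 on average to STE6 at 9.98, and the highest for every alpha-type probe, up to 12.36 for MF(ALPHA)1.

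Genes of the pheromone response, the cascade that a pheromone receptor triggers through a G protein and a MAP kinase chain, were mostly higher on the hsp33 arrays. Of 26 tested 19 rose and 4 fell, with a median difference of 0.49 against -0.03 for all genes. Against wild type 29.0% of all genes tested rose and 32.4% fell. AGA1, the anchor subunit of agglutinin, stood at 9.25, 9.16 and 9.12 in wild type and at 12.09, 12.02 and 12.32 in the deletion (2.97 ± 0.10), and the groups were far apart. FUS1, needed for cell fusion, rose by 2.37 ± 0.09, PRM1, a fusion membrane protein, by 1.84 ± 0.09 and KAR4, a factor for nuclear fusion genes, by 1.77 ± 0.14. FAR1, which arrests the cycle, rose by 1.53 ± 0.08. ASG7, an a-specific regulator of the signal (-0.86 ± 0.12), and the adaptor STE50 (-0.69 ± 0.10) fell, and PRM2 did not pass (0.01 ± 0.10, adjusted p = 0.958). Of the 26 genes, 11 were higher and 1 lower than in the hsp31 deletion, and 13 were higher and 1 lower than in the hsp32 deletion (10 and 2 without hsp32 replicate 2), contrasts that use no wild-type array. Over all genes the shares were 2.87% higher and 1.96% lower than the hsp31 deletion, and 9.57% higher and 9.14% lower than the hsp32 deletion. AFB1, the a-factor barrier protein made by alpha cells, rose by 1.99 ± 0.13 and exceeded the hsp31 and hsp32 deletions by 2.19 and 2.09. Of 8 markers of sporulating cells 7 were tested, with 2 rises and 1 fall, to be read against the same 29.0% and 32.4%. NDT80 (0.57 ± 0.11) and DIT1 (0.39 ± 0.09) rose, and IME2 fell by 0.43 ± 0.09 (-0.08 with 75th percentile scaling). None of the 3 differed from either other deletion, with adjusted p-values from 0.129 to 0.915.

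Strain marker genes, those used for selection, differed in part. HIS3, an enzyme of histidine synthesis, read 8.86, 8.80 and 8.87 in wild type and 7.55, 7.52 and 7.47 on the hsp33 arrays, a fall of 1.33 ± 0.12 (adjusted p = 3.8e-07) with no overlap. In the other deletions HIS3 was higher than in wild type, at 9.80 ± 0.15 (hsp31) and 10.18 ± 0.26 (hsp32; SD, n = 3 each). LEU2 rose by 0.97 ± 0.12 and MET17 by 2.08 ± 0.12, and both were also higher than wild type in the other deletions. URA3 was not above background in wild type or in the hsp33 deletion, and it stood at 15.14 ± 0.13 (SD, n = 3) in the hsp32 deletion. LYP1 was the other marker that fell, with 12.86, 12.69 and 12.99 in wild type against 12.54, 12.59 and 12.63 on the hsp33 arrays. LYS2 was below background in both groups and was not tested, and CAN1, TRP1 and ADE2 did not pass (-0.36, 0.03 and 0.17). CAN1 passed with slide as a block (-0.44), within slide 1 (-0.91) and without hsp33 replicate 2 (-0.52). YIL082W, a retrotransposon Gag gene with copies elsewhere, rose by 2.68 ± 0.09 and exceeded both other deletions by 2.56 and 2.90; it was singled out after its values were seen.

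Beyond mating type, most genes tested differed from wild type. Of 5863 genes tested, 3600 passed the threshold (61.4%), 1700 of them higher (29.0% of genes tested) and 1900 lower (32.4%) in the hsp33 deletion. The list counts below are to be read against these 29.0% and 32.4%. Those past the threshold with a difference of at least 1.5-fold numbered 1763 (30.1% of genes tested), and with at least 2-fold 740 (12.6%). The arrays of the 2 groups did not overlap for 4220 genes (72.0%), 3558 of which passed (60.7%). Arrays were assigned to 2 slides, inferred from the array block and scan offset and not named in the labels. Each slide held arrays of both groups, and with slide as a block 3515 genes passed. Within slide 1 alone (2 wild-type arrays and 1 hsp33 array) 2226 passed and within slide 2 alone (1 and 2 arrays) 2261 did, in fits where the lone array is assumed to vary like the other groups. The split of calls depended on scaling: 47.2% of calls were higher with quantile normalization, 61.8% (2371 higher, 1465 lower) when each array was scaled to its 75th percentile and 42.0% when scaled to its median. The median of all genes was -0.03, 0.15 and -0.08 in these settings, so gene differences are to be read against that shift.

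**Figure D2:**
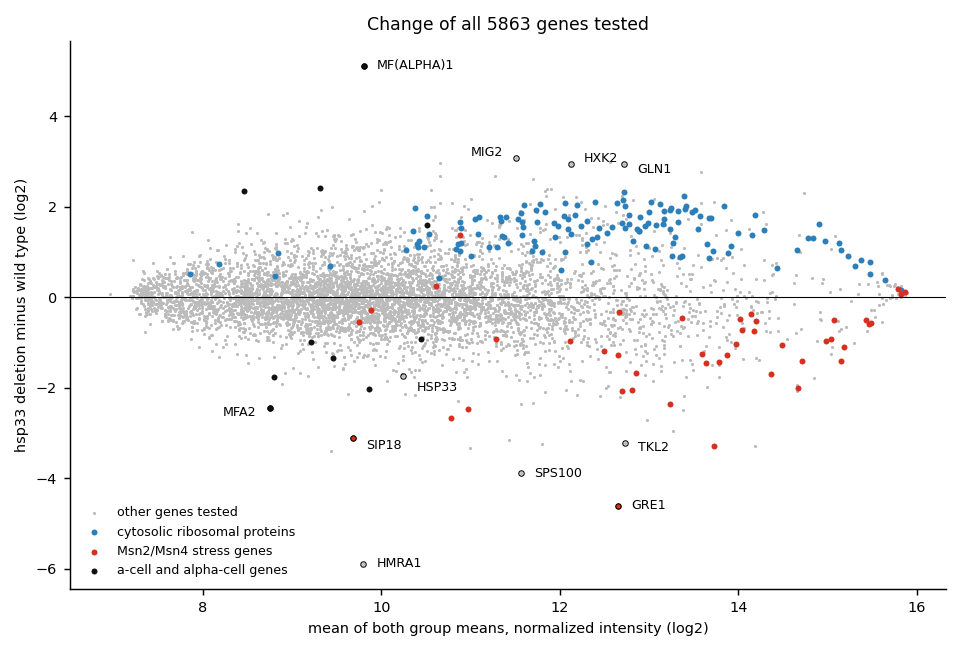
Difference (hsp33 deletion minus wild type, log2) of each gene tested against the mean of the group means (log2 intensity), with cytosolic ribosomal protein genes, Msn2/Msn4 stress genes and mating-type markers coloured. Ribosomal protein genes lie above 0 and most stress genes below it, and HMRA1 and MF(ALPHA)1, each below background in 1 group so that their plotted size is not exact, are the extremes; at the right edge probes near saturation are compressed towards 0.

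The largest falls after HMRA1 were led by GRE1 and SPS100 and the largest rises after MF(ALPHA)1 by MIG2 and ZRT1. GRE1, a hydrophilin of desiccation and osmotic stress, read 14.810, 15.045 and 14.999 in wild type and 10.548, 10.415 and 10.078 in the hsp33 deletion (-4.60 ± 0.12, 24.3-fold). SPS100, a spore wall gene, read 13.45, 13.60 and 13.48 against 9.70, 9.63 and 9.53 (-3.89 ± 0.09). In both genes the wild-type arrays lay close together and far above the deletion arrays. SHH3, a mitochondrial paralog of a succinate dehydrogenase subunit (-3.34 ± 0.13), ALD3, a stress-induced aldehyde dehydrogenase saturated on 1 wild-type array (-3.29 ± 0.10), HBT1, a protein of mating-projection shape (-3.23), TKL2, POT1, SIP18 and SPG1, needed in stationary phase (-2.94), followed. The rises were MIG2, a repressor made in high glucose (3.08 ± 0.11), ZRT1, the high-affinity zinc transporter (2.98 ± 0.10), AGA1, GLN1, glutamine synthetase (2.94 ± 0.15), and HXK2, the main glucose hexokinase (2.93 ± 0.09).

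Genes of the ribosome were higher in the hsp33 deletion almost without exception. All 56 tested genes of the small cytosolic subunit and 80 of 81 of the large subunit rose, with median differences of 1.54 and 1.41, and within the slides the medians were 1.73 and 1.40 and 1.62 and 1.36. RPL37A read 11.54, 11.63 and 11.53 in wild type and 13.74, 13.80 and 14.11 in the deletion (2.31 ± 0.12, adjusted p = 2.44e-09), and RPS16B read 11.59, 11.63 and 11.67 against 13.68, 13.78 and 13.88 (2.15 ± 0.11). In both genes every deletion array exceeded every wild-type array. RPP2B, a stalk protein, was saturated on all 6 arrays and did not pass (0.15 ± 0.09), though it did without wild-type replicate 2 (0.25). Ribosomal protein genes often come as near-identical pairs, and the probes may read both copies.

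Genes that build ribosomes followed at a smaller size. Of 126 ribosome biogenesis genes 116 rose and 1 fell (median 0.88, and 1.03 and 0.78 within the slides), led by KRI1, a nucleolar factor of the small subunit (1.77 ± 0.12), NOP13 (1.72 ± 0.16) and NSR1, the yeast nucleolin (1.69 ± 0.21). NSR1 read 9.79, 9.79 and 9.62 in wild type and 11.02, 11.31 and 11.96 in the deletion, so its groups were apart though the deletion arrays spread widely. RIO1, a kinase of late small-subunit maturation, was the 1 that fell (-0.47 ± 0.10). RNA polymerases I and III, which transcribe ribosomal and transfer RNA, had 20 of 25 genes higher (median 0.64), among them RPA135 (1.25 ± 0.11) and RPA190 (1.11 ± 0.13), the large subunits of polymerase I. RRN3, the initiation factor that recruits polymerase I, fell by 0.52 ± 0.10. Translation factors rose in 29 of 41 cases and fell in 3 (median 0.49). The elongation factor 3 genes diverged: YEF3 rose by 1.35 ± 0.12, and HEF3, its low-zinc-induced paralog, fell from 12.73, 12.89 and 12.97 to 10.98, 10.66 and 9.96 (-2.33 ± 0.21).

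**Figure D3:**
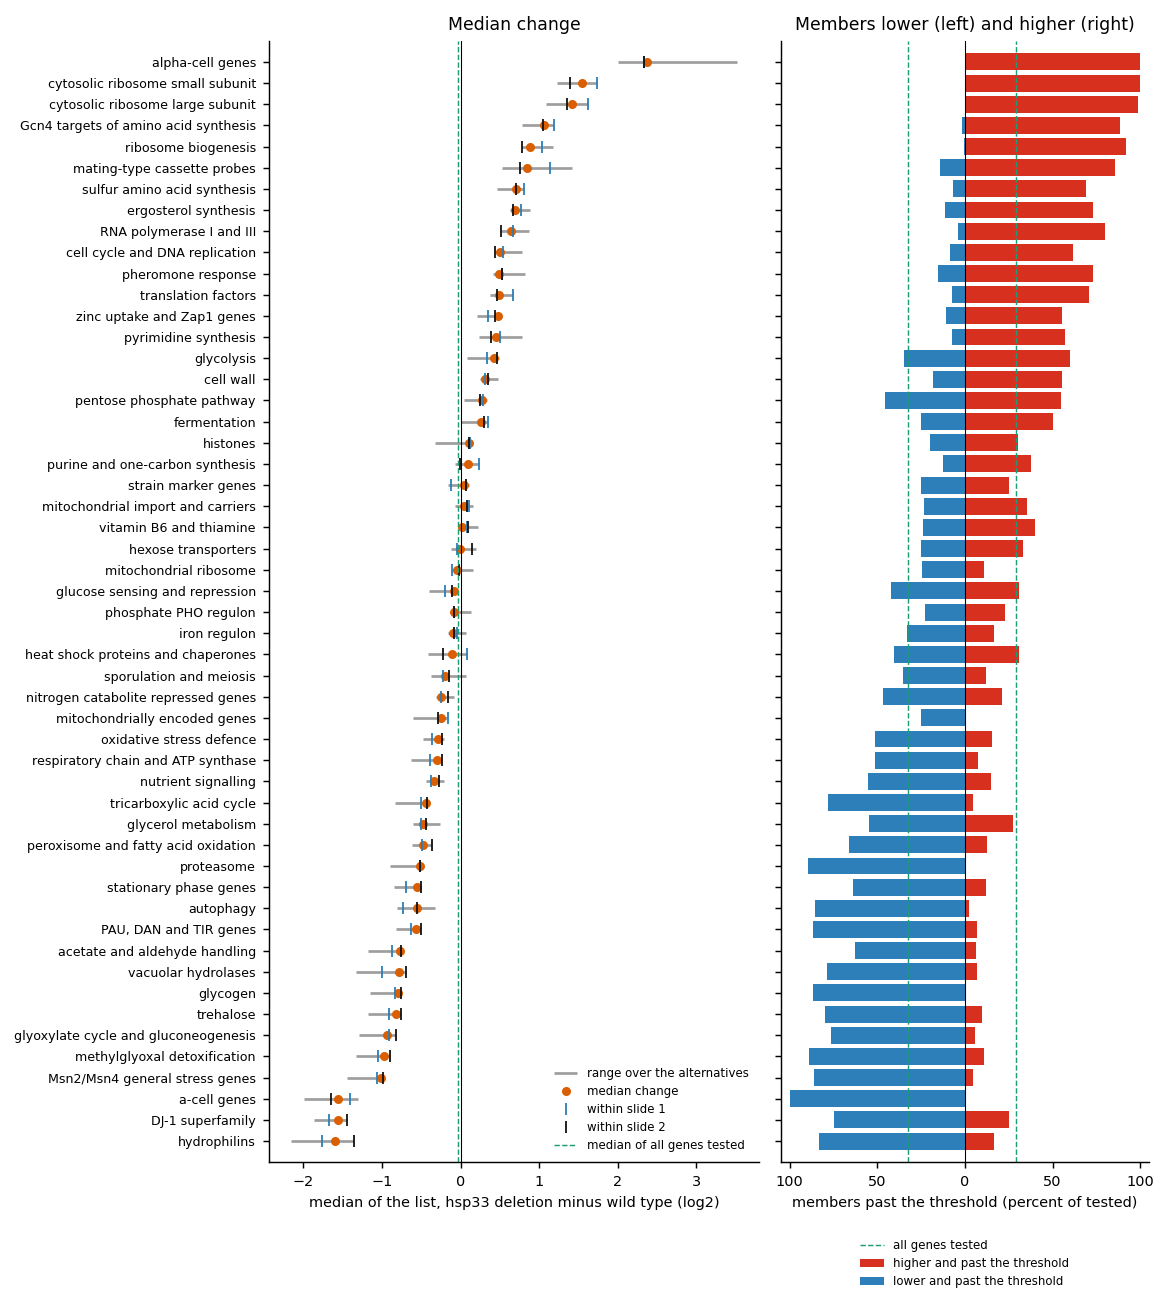
Left, the median difference (hsp33 deletion minus wild type, log2) of each gene list, with ticks for the value within each slide and grey bars for the range over all alternative settings; right, the percent of tested members that were lower or higher and past the threshold. Ribosomal, Gcn4 and alpha-cell lists lie at the top and hydrophilin, a-cell and Msn2/Msn4 lists at the bottom, while lists near 0 change sign between settings.

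RNA levels of amino acid synthesis genes were broadly higher. Of 52 tested targets of Gcn4, the activator of amino acid synthesis, 46 rose and 1, HIS3, fell (median 1.06). GLN1 read 11.42, 11.29 and 11.05 in wild type and 13.79, 14.29 and 14.48 in the deletion, and HIS7, of histidine synthesis, rose by 2.38 ± 0.14, ASN1, asparagine synthetase, by 2.18 ± 0.16 and BAT1, the mitochondrial branched-chain transaminase, by 1.94 ± 0.12. SER1, of serine synthesis, did not pass (0.06 ± 0.13). In the sulfur branch 20 of 29 genes rose and 2 fell (median 0.71), with MET17, which makes homocysteine, at 12.61, 12.51 and 12.52 against 14.41, 14.52 and 14.95, and CYS3, cystathionine gamma-lyase, up by 2.01 ± 0.08. MUP3, a low-affinity methionine permease (-0.47 ± 0.10), and MET30, a ubiquitin ligase subunit that restrains the pathway (-0.31), fell.

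Nucleotide, sterol and metal genes split further, where 29.0% of all genes tested rose and 32.4% fell. Pyrimidine genes rose in 8 of 14 cases (median 0.45), with the purine and cytosine permease FCY2 up by 2.15 ± 0.11 and URA10, the minor orotate transferase, down by 0.73 ± 0.08. The purine and one-carbon list had 9 rises and 3 falls among 24 and a median of 0.09 that became -0.07 with median scaling; its rises were led by the IMP dehydrogenases IMD4 (1.55 ± 0.12) and IMD3 (1.47 ± 0.09) and its falls by the glycine cleavage gene GCV1 (-1.32 ± 0.12). Ergosterol synthesis rose in 19 of 26 genes (median 0.70), with ERG3, the C-5 desaturase (1.96 ± 0.09), ERG2, the C-8 isomerase (1.89), and ERG11, the target of azole drugs (1.71 ± 0.14), while HMG2, an HMG-CoA reductase isozyme, fell from 13.10 ± 0.01 to 12.10 ± 0.08 (SD, n = 3 each). Zinc genes under Zap1 rose in 10 of 18 cases (median 0.48). ZRT1 read 10.88, 11.23 and 11.12 in wild type and 14.09, 14.00 and 14.06 in the deletion, ZPS1, a secreted zinc protein, rose by 2.67 ± 0.09, and COT1, a vacuolar zinc transporter, did not pass (0.02 ± 0.10). The iron regulon had 6 rises and 12 falls among 36, a share of falls near that over all genes tested. Its median of -0.09 became 0.07 with 75th percentile scaling. The uptake pair FTR1 and FET3 rose (1.24 ± 0.10 and 1.05 ± 0.14) and the cell wall mannoprotein FIT1 fell (-1.24 ± 0.11).

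Glucose transporters and hexokinases differed by isoform. HXT4, a transporter for intermediate glucose, read 10.44, 10.40 and 10.34 in wild type and 12.77, 12.89 and 13.36 in the deletion (2.62 ± 0.17). HXT3, the low-affinity transporter, was saturated on all 3 deletion arrays and at least 4.94-fold higher (adjusted p = 8.92e-11), and HXT1 rose by 1.38 ± 0.09. HXT5, a transporter of starving cells, was saturated on all wild-type arrays and at least 4.18-fold lower (adjusted p = 4.84e-08), at 13.96, 13.60 and 13.31. HXT6 and HXT7, the high-affinity pair, were saturated in both groups and did not pass (0.27 and 0.09), though HXT6 passed without wild-type replicate 3 (0.36), without hsp33 replicate 3 (0.41) and with array weights (0.37). Of 17 hexose transporters on the array 12 were bright enough to test, of which 4 rose and 3 fell. These shares are near those of all genes tested (29.0% higher and 32.4% lower). The median of the list, -0.01, was 0.20 with 75th percentile scaling. HXK2 read 10.63, 10.57 and 10.76 against 13.52, 13.70 and 13.55, MIG2 read 9.998, 10.081 and 9.842 against 12.865, 13.146 and 13.137, and neither pair of groups came near the other. STD1, a regulator of the glucose sensors, rose by 1.08 ± 0.09, while ADR1 and CAT8, activators of ethanol use, fell (-0.92 ± 0.13 and -0.73 ± 0.15) and MIG1, the main glucose repressor, did not pass (-0.01).

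In several isozyme pairs of central carbon metabolism, picked after their values were seen, the members moved in opposite directions. Over all genes tested 29.0% rose and 32.4% fell. In glycolysis 12 of 20 genes rose and 7 fell (median 0.42): the enolase ENO2, induced by glucose, rose by 1.33 ± 0.11 while ENO1 fell by 0.47 ± 0.10 (-0.25 and not past the threshold within slide 1), and the 6-phosphofructo-2-kinases split into PFK27 (1.68 ± 0.13) and PFK26 (-1.18 ± 0.14). The pentose phosphate pathway, which makes NADPH and ribose, had 6 rises and 5 falls and a median of 0.27. Its transketolase TKL1 read 11.10, 11.28 and 11.19 in wild type and 13.31, 13.14 and 13.40 in the deletion (2.09 ± 0.12). TKL2, the second transketolase, read 14.32, 14.23 and 14.47 against 11.29, 11.20 and 10.87 (-3.22 ± 0.12). The 6-phosphogluconate dehydrogenases did the same, GND1 by 2.17 ± 0.11 and GND2 by -2.71 ± 0.14, and so did the lactonases SOL3 (1.15 ± 0.07) and SOL4 (-2.48 ± 0.16). Among cytochromes c, CYC1 rose by 1.28 ± 0.09 and CYC7, the form of low oxygen and stress, fell by 1.76 ± 0.15. Glycerol genes had 3 rises and 6 falls among 11 (median -0.47). On the side of glycerol use GUT2 (-1.60 ± 0.19) and the uptake gene STL1 (-1.86 ± 0.14) fell. On the side of its making GPP1 (2.08 ± 0.15) and GPP2 (1.15) rose. The remaining members of the list are not split by side here, so these genes do not stand for either side as a whole. GPD1, also of glycerol making, is not printed here, and the authors' deposited ratios for it are 0.6634 and 0.6846.

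**Figure D4:**
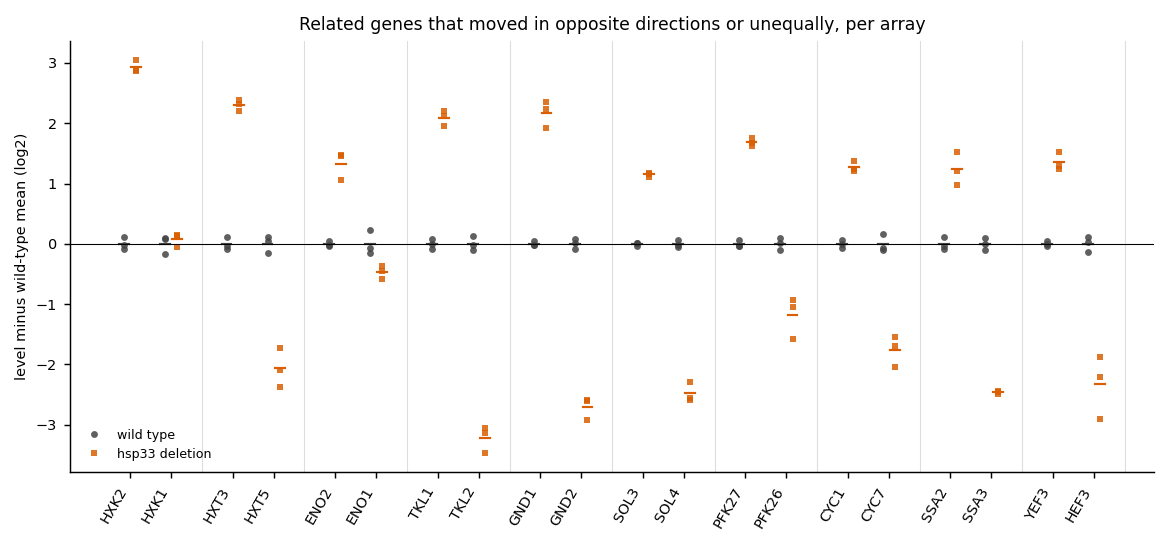
Level of 20 related genes, in 10 pairs, on the 6 arrays as the difference from the wild-type mean (log2), with points for arrays and short lines for group means. In 9 pairs the members moved in opposite directions, as in TKL1 (2.09) and TKL2 (-3.22), and in the pair HXK2 and HXK1 only HXK2 rose (2.93); HXK1, HXT5 in wild type and HXT3 in the deletion were saturated, and the pairs were picked after their values were seen.

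Most genes for growth on ethanol and acetate were lower. The glyoxylate cycle and gluconeogenesis had 13 falls and 1 rise among 17 genes (median -0.93, and -0.91 and -0.82 within the slides). ACS1, the acetyl-CoA synthetase of respiring cells, read 12.85, 12.76 and 12.62 in wild type and 10.62, 10.19 and 10.32 in the deletion (-2.37 ± 0.16), and SFC1, the succinate-fumarate carrier, fell by 2.10 ± 0.19. MLS1, malate synthase (-1.58 ± 0.14), FBP1, fructose-1,6-bisphosphatase (-1.48 ± 0.14), PCK1, PEP carboxykinase (-1.16 ± 0.16), and ICL1, isocitrate lyase (-0.70 ± 0.16), fell too, while MAE1, the malic enzyme, rose by 1.30 ± 0.12 and the citrate synthase CIT2 did not pass (0.08 ± 0.11). Acetate and aldehyde genes fell in 10 of 16 cases (median -0.77), and ALD5, a mitochondrial aldehyde dehydrogenase, was the 1 that rose (1.89 ± 0.09). ADH2, the alcohol dehydrogenase that consumes ethanol, fell by 0.83 ± 0.14.

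Other mitochondrial and peroxisomal lists differed in how many members fell, where 32.4% of all genes tested did. Of 23 tricarboxylic acid cycle genes 18 fell, with a median of -0.44. The respiratory chain and ATP synthase had 21 falls and 3 rises among 41 (median -0.30), led by NDE2, an external NADH dehydrogenase that went from 13.14, 13.20 and 13.47 to 11.40, 11.21 and 10.72, and CYB2, the lactate dehydrogenase (-2.00 ± 0.11). In NDE2 no deletion array reached a wild-type array, and 17 genes of the chain did not pass. Peroxisome and fatty acid oxidation genes fell in 31 of 47 cases and rose in 6 (median -0.48). POT1, the peroxisomal thiolase, read 13.07, 13.18 and 12.76 in wild type and 9.97, 9.88 and 9.72 in the deletion (-3.15 ± 0.13), and the carnitine acetyltransferase CAT2 (-2.21 ± 0.17) and catalase CTA1 (-1.75 ± 0.13) fell with it. Mitochondrial ribosome genes had 8 rises and 18 falls among 74, both smaller shares than over all genes tested, and a median of -0.04 that was 0.15 with 75th percentile scaling. Of the 8 tested genes encoded in the mitochondrion, VAR1, a ribosomal protein (-0.78 ± 0.16), and ATP8, an ATP synthase subunit (-0.56 ± 0.21), fell and 6 did not pass, again a smaller share of falls than over all genes. The call of ATP8 was lost in 8 alternatives, among them without wild-type replicate 1 (-0.42) and without hsp33 replicate 2 (-0.33).

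Most genes of carbohydrate stores and of general stress were lower. All but 2 of 15 glycogen genes fell (median -0.79), with GDB1, the debranching enzyme, at 13.02, 13.18 and 13.08 in wild type and 11.09, 10.91 and 11.13 in the deletion. Of 10 trehalose genes 8 fell (median -0.82), both of synthesis (TSL1 -1.27 ± 0.18, TPS1 -1.04 ± 0.12) and of breakdown (ATH1 -1.75 ± 0.11, NTH1 -0.86), and PGM1, the minor phosphoglucomutase, rose by 0.35 ± 0.12, a call lost without wild-type replicate 1 and without hsp33 replicate 1 (0.26). Among 44 genes of the Msn2 and Msn4 stress response 38 fell and 2 rose (median -1.01, and -1.06 and -0.98 within the slides). The 2 that rose were the regulators themselves, MSN4 from 10.03, 10.22 and 10.31 to 11.56, 11.73 and 11.42 (1.38 ± 0.10) and MSN2 by 0.26 ± 0.09, the latter a call lost in 7 alternatives, among them without wild-type replicate 2 or 3 and without hsp33 replicate 2 or 3 (0.19 to 0.26). HSP12, a membrane-stabilizing small protein, was saturated on all wild-type arrays and at least 4.02-fold lower (adjusted p = 7.69e-07). Hydrophilins fell in 5 of 6 cases (median -1.60), with SIP18 at -3.12 ± 0.11, and stationary phase genes in 16 of 25 (median -0.55).

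Heat shock proteins and chaperones as a list had shares near those of all genes tested (29.0% higher and 32.4% lower), with 13 rises and 17 falls among 42 and a median of -0.10 that turned to 0.08 within slide 1 and 0.02 without saturated probes. SSA3, a stress-induced Hsp70, read 12.21, 12.10 and 12.30 in wild type and 9.76, 9.74 and 9.71 in the deletion (-2.46 ± 0.12). The ribosome-bound chaperones rose instead, ZUO1 from 10.66, 10.68 and 10.58 to 12.56, 12.66 and 12.87 (2.06 ± 0.11), SSB1 by 1.41 ± 0.10 and SSB2 by 1.27 ± 0.09. Oxidative defence genes fell in 20 of 39 cases and rose in 6 (median -0.29): GPX1, a glutathione peroxidase (-2.14 ± 0.12), and GTT1, a glutathione transferase (-1.98 ± 0.13), fell, and YHB1, the nitric oxide oxidoreductase (2.36 ± 0.12), and OYE2, an NADPH oxidoreductase (2.36 ± 0.10), rose. Enzymes that clear methylglyoxal, the reactive by-product of glycolysis that DJ-1 proteins act on, had 9 tested genes with a median of -0.97, of which 8 fell. The list holds the 4 DJ-1 genes, so 3 of those falls are HSP33, HSP32 and SNO4, which can share signal, and HSP31 was the 1 that rose. The other 5 members all fell. GLO1, the glutathione-dependent glyoxalase, read 14.58, 14.50 and 14.36 in wild type and 12.41, 12.15 and 12.35 in the deletion (-2.17 ± 0.15). GRE2, a methylglyoxal reductase (-1.40 ± 0.12), GRE3, an aldose reductase (-0.97 ± 0.10), GLO2 (-0.72 ± 0.08) and GLO4 (-0.58 ± 0.08), the hydrolases of the next step, fell as well.

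Most genes of autophagy, vacuolar hydrolases and the proteasome had lower RNA levels, where 32.4% of all genes tested fell and 29.0% rose. Of 41 autophagy genes 35 fell and 1 rose (median -0.55), with the receptors ATG39 of the nucleus (-1.72 ± 0.13) and ATG36 of peroxisomes (-1.32 ± 0.13) among the largest and ATG41, a factor of autophagosome formation, as the 1 that rose (1.62 ± 0.09). Of 14 genes listed as vacuolar hydrolases 11 fell (median -0.78), among them carboxypeptidase Y, PRC1 (-1.13 ± 0.12). The list also holds the protease A inhibitor PAI3, not itself a hydrolase, which fell by 2.66 ± 0.11. No proteasome gene rose and 35 of 39 fell (median -0.51), most of all the activator BLM10, which read 9.69, 9.95 and 10.13 in wild type and 8.46, 8.29 and 7.98 in the deletion. Genes of nutrient signalling fell in 30 of 54 cases and rose in 8 (median -0.34), with SCH9, the kinase downstream of TORC1 (-1.33 ± 0.18), and YAK1, a kinase opposed to growth (-1.38 ± 0.20), both lower. Nitrogen-repressed genes fell in 20 of 43 cases and rose in 9 (median -0.24), with CAR2, of arginine breakdown, at -1.48 ± 0.16 and AGP1, an amino acid permease, at 0.93 ± 0.13.

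Growth and surface genes also differed, where 29.0% of all genes tested rose and 32.4% fell. Cell cycle and replication genes rose in 29 of 47 cases and fell in 4 (median 0.51), led by POL30, the sliding clamp PCNA, from 7.92, 7.87 and 8.26 to 9.95, 9.96 and 9.71 (1.86 ± 0.11), and the G1 cyclins PCL1 (1.55 ± 0.10) and CLN1 (1.54 ± 0.09). CTS1, the chitinase of cell separation, fell by 0.82 ± 0.15. Cell wall genes rose in 21 of 38 cases (median 0.31), with TIP1, a mannoprotein (2.23 ± 0.09), SCW10, a glucanase-like protein (2.22 ± 0.08), and GAS1, a glucanosyltransferase (1.95 ± 0.11), and PIR3 fell by 1.40 ± 0.11. The seripauperin and related PAU, DAN and TIR genes fell in 26 of 30 cases (median -0.57), with PAU22 at -1.48 ± 0.08, though these probes share much sequence, and TIR1 rose by 1.34 ± 0.10. The phosphate regulon (6 rises and 6 falls of 26), histones (3 and 2 of 10), vitamin B6 and thiamine genes (10 and 6 of 25), mitochondrial import and carrier genes (18 and 12 of 51) and sporulation genes (2 and 6 of 17) had medians from -0.20 to 0.11, each of which changed sign in at least 1 alternative setting.

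Fewer genes passed against the other deletions than against wild type. Against the hsp31 deletion 283 genes passed (4.83%), 168 higher and 115 lower, and against the hsp32 deletion 1097 passed (18.7%), 561 higher and 536 lower, or 891 without hsp32 replicate 2. Without hsp33 replicates 1, 2 and 3 in turn the counts were 296, 96 and 119 against the hsp31 deletion and 504, 663 and 1319 against the hsp32 deletion. Of the 168 genes that passed both contrasts, 32 were above both deletions (0.546% of genes tested), 13 below both (0.222%) and 123 between them (2.1%). Of the 45 genes outside both, 18 of the 32 and 8 of the 13 are on the a-cell, alpha-cell, pheromone or cassette lists. The cassette list, written after its values were seen, supplies 4 of the 18 and 1 of the 8. AFB1, HIS3, YOR392W and YIL082W account for 4 of the others. GYP8, a GTPase activator gene beside STE2 in the annotation, was also below both, by 0.55 and 0.85 (picked after its values were seen), and did not pass against wild type (-0.10 ± 0.08). The counts of genes above both and below both stayed at 22 to 32 and 11 to 14 in the alternatives run.

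Where list members lay between, the hsp33 deletion showed more of the difference from wild type than the hsp31 deletion and less than the hsp32 deletion in the lists given here. Ribosome biogenesis genes were lower than in the hsp32 deletion in 91 of 126 cases (75 without hsp32 replicate 2) and higher than in the hsp31 deletion in 10, with none the other way, and list medians on the hsp33 arrays were 0.73, 0.84 and 0.99 against 0.51 to 0.73 in the hsp31 and 1.29 to 1.53 in the hsp32 deletion. Small-subunit ribosomal genes were higher than in hsp31 in 19 of 56 and lower than in hsp32 in 19 (11 without hsp32 replicate 2). Msn2/Msn4 stress genes ran the other way, with 26 of 44 higher than in the hsp32 deletion and 3 lower (26 and 2 without hsp32 replicate 2), and 4 lower than in the hsp31 deletion. RPA135 illustrates the first order at 9.92 ± 0.19 in hsp31, 10.60 ± 0.08 in hsp33 and 11.20 ± 0.17 in hsp32, and POT1 the second at 10.62 ± 0.10, 9.86 ± 0.13 and 8.97 ± 0.24 (SD, n = 3 each). In both genes each step passed the test. The number of genes between was sensitive to single arrays: it was 23 without hsp33 replicate 2, 31 without replicate 3 and 89 without replicate 1, 117 without hsp32 replicate 2, and 57 with slide as a block. HXK2, MIG2 and SSA3, by contrast, passed against neither deletion, with differences of at most 0.30 and adjusted p-values from 0.11 to 0.744.

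**Figure D5:**
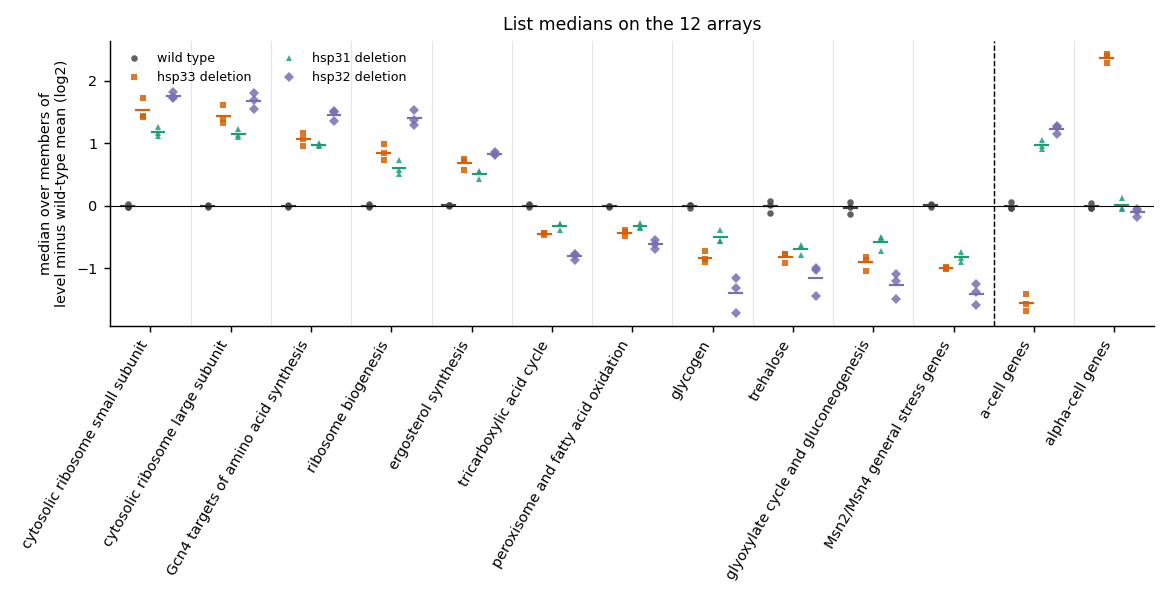
Median over the tested members of 13 gene lists of the level minus the wild-type mean (log2), for each of the 12 arrays; points are arrays and short lines are group means. For the 11 metabolic and growth lists the hsp33 deletion lies between the hsp31 and hsp32 deletions on average and away from wild type, and for the a-cell and alpha-cell lists it stands alone, at -1.41 to -1.67 and 2.29 to 2.44.

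The authors' deposited table for this comparison lists 7119 gene spots of 4070 genes, with a ratio below 1 for 4592. Ratios above 1 have mostly lost their decimal point in the authors' deposited table and are used here only as a direction, which matched hsp33 over wild type. Of 1998 tested genes with both spots below 1 in the authors' deposited table, 1568 fell here and 10 rose, and of 1049 with both above 1, 1012 rose and none fell. For HMRA1 the authors' deposited table gives ratios of 0.0068 and 0.0091, for GRE1 0.0247 and 0.0257, and for HSP33 0.2154 and 0.2228. It also lists MFA2 at 0.1245 and 0.1309 and HIS3 at 0.3079 and 0.3096.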

How the data were processed

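Each array file, as deposited by the authors, gives per spot the mean foreground and median local background intensity of Cy3, neither normalized nor background-subtracted, and the percent of saturated pixels, per the file headers. The authors' deposited table for this comparison gives a ratio (fold) and an unadjusted p-value per spot. Scanner and extraction software settings beyond the headers are not given in the sources used here.

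Intensities were corrected with normexp (offset 50), quantile-normalized over 12 arrays, log2-transformed and averaged over the 2 spots of each of 6252 probes (limma 3.58.1, R 4.3.3; Python 3.11.15). A probe was above background past the median plus 2 SD of 77 negative control spots and saturated from 50% of pixels. A gene was tested (5863 were) if any of the 4 groups had it over background throughout its 3 arrays, in 1 limma fit of 4 groups with Benjamini-Hochberg adjustment at 0.05, after recovery of known changes was tested on simulated data. Medians, direct contrasts and bounds come from the same fit. Bounds ("at least") set the mean of the bright group, saturated spots at their value, against the dim group at the higher of its own signal and the lowest signal above background. Slides were inferred from the array block and scan offset in the files. Same-numbered wild-type and hsp33 arrays deviated from their group means with correlations of -0.163, -0.117 and -0.424, and the main fit did not pair arrays by number. With 3 arrays a group these correlations cannot decide whether the numbers mark pairs. Names come from the files and, for 5753 of 6252 probes, from RefSeq R64; no build is named, so no position or sequence is given.

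The gene lists were chosen with earlier results of these data known. Counts are over members bright enough to test: 17 of 20 sporulation, 47 of 49 cell cycle and 36 of 38 iron genes. The Gcn4, vitamin, pheromone and strain marker lists had 1 fewer than on the array. URA3 passed only through the hsp32 arrays, and MF(ALPHA)2 only through the hsp33 arrays. Named genes were drawn from the DJ-1 family, the 15 largest rises and falls, and the 8 largest in each direction against each other deletion. Each list added its 5 largest, 2 opposite and least changed genes, and every member of lists of up to 15. That rule gave 372 genes, of which only a part is printed, and the rule does not set which. The genes named in the text and tested number 175, LYP1 not counted. CAT8, CIT2, ENO1, ERR1, FEX1, GYP8, ICL1, IME2, PCK1, YIL082W and YOR392W fall outside that rule and were chosen after their values were seen. Alternatives varied background correction, normalization, probe filters, arrays, slide and replicate blocks and weights.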

Additional observations from a re-analysis of the deposited data

Results flagged for a closer look

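Genes that moved one way in the hsp33 deletion and the opposite way in both other deletions, each against the same wild-type arrays and with the difference between deletions tested directly, were 8 with lower and 1 with higher values. MFA2 (-2.45), MFA1 (-2.02), BAR1 (-1.76), STE2 (-1.34), AGA2 (-0.98) and STE6 (-0.92), the a-cell genes, and ASG7 (-0.86) were below wild type in the hsp33 deletion and above it in the others. Their differences from the hsp31 deletion ran from -1.65 for ASG7 to -3.83 for MFA2, and from the hsp32 deletion from -1.54 for ASG7 to -3.94 for MFA2. HIS3 (-1.33) shared this pattern at -2.29 and -2.66. HMLALPHA1 (2.10) was the reverse, with differences of 2.54 and 2.67. Whether the groups differ in mating type by strain construction was not tested, and it cannot be told apart from the deletion here.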

How the results depend on the processing

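Of 161 named genes past the threshold, LYP1 not counted, 145 kept their call in all 25 alternatives, and 37 of 4363 pairs of gene and alternative lost it. In 10 pairs a gene short of the threshold passed: CAN1 and HXT6 in 3 each, RPP2B in 2 (0.31 with cyclic loess), MIG1 with median scaling (-0.38) and PRM2 with 75th percentile scaling (0.38). Against wild type 3600 genes passed. Within slide 1 it was 2226 (1106 higher, 1120 lower) and within slide 2 it was 2261 (1104 and 1157), with fewer arrays in each. Without 1 replicate in turn, 1550 to 1592 genes were higher and 1718 to 1788 lower. The replicate block gave 3539 (1681 higher, 1858 lower), although the labels do not say that the numbers pair the arrays. Against the hsp31 deletion 283 genes became 175 with median scaling, 155 with slide as a block, and 96 to 296 without 1 hsp33 replicate; the replicate block gave 377. Against the hsp32 deletion 1097 became 504 to 1319 without 1 hsp33 replicate, and 891 without hsp32 replicate 2, an alternative chosen after seeing the data, as was leaving out the hsp32 arrays.

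Of the list medians, 41 kept 1 sign in every alternative and 11 did not. With 75th percentile scaling the median turned to 0.15 for the mitochondrial ribosome, 0.072 for the iron regulon, 0.13 for the phosphate regulon, -0.093 for histones and 0.071 for sporulation. With median scaling it turned to -0.075 for purine synthesis, -0.32 for histones and -0.065 for mitochondrial import and carriers. Heat shock proteins turned to 0.019 without saturated probes and 0.083 within slide 1, purine synthesis to -0.0020 within slide 2, and the iron regulon to 0.0066 on the authors' series values. Of named genes, CIT2 (-0.44), COT1 (-0.28) and TRP1 (-0.33) turned and passed with median scaling. These causes were not tested. Saturation bounds the changes of the brightest probes, and of 6252 probes 5863 were bright enough to test.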
